A study of Mus musculus with 30 samples.

Results

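Chronic constriction injury (CCI), a model in which loose ligatures around a peripheral nerve, classically the sciatic, leave it compressed but not cut, was compared with uninjured controls in CD11b-selected cells of the mouse lumbar spinal cord. The comparison took every column labelled CCI or control from a table of FPKM values (fragments per gene, scaled by transcript length and library size), which made 13 of the 30 libraries of the series. The CCI groups were CCI_2dpi, taken 2 days post injury (dpi, 2 libraries), and CCI_7dpi, taken 7 days post injury (2 libraries). The 9 controls were 2 libraries with no condition in the labels, called naive here since the protocol speaks of controls that were neither treated nor injured, 4 libraries from mice given saline on a fixed regimen and 3 from mice given saline on an escalating regimen. All mice were C57BL/6J. No sham-operated group is named among these 9, and neither the age of the mice nor the side of the injury is given. Nothing in the labels ties libraries to separate animals. The p-values here therefore measure the spread between libraries, which may be technical. In the main fit all 9 controls share a single mean, so that spread also holds any difference between naive and saline libraries.

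Microglia are macrophages that live in the brain and spinal cord from early development on. After damage to a peripheral nerve, microglia in the dorsal horn of the cord segments that the nerve serves are known to divide and to change their gene expression. Colony stimulating factor 1 released by injured sensory neurons acts on the receptor Csf1r to drive that division, and purinergic receptors such as P2rx4, the transcription factors Irf8 and Irf5 and the protease Ctss have been tied to pain behaviour in rodents. The protocol takes the caudal lumbar cord and names no subregion. CD11b is also carried by neutrophils, monocytes and border macrophages.

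Microglial markers were high in all 13 libraries, and so were markers of neutrophils, which also carry CD11b. Tmem119, which marks microglia, had 950.2 to 1401 FPKM in the CCI libraries, against 1044 and 994 FPKM in the naive ones and 572 to 1443 FPKM in the saline ones. P2ry12, the purinergic receptor of resting microglia, had 684 to 1550.2 FPKM in the CCI libraries, against 1441 and 1069.7 FPKM in the naive ones and 804 to 1199 FPKM in the saline ones. The 13 microglial genes summed to 12116 to 16367 FPKM in the CCI libraries, against 13008 to 14569.5 FPKM in the naive libraries and 12276 to 17311 FPKM in the saline libraries. The 9 neutrophil genes in the table summed to 3042 to 7842 FPKM in the CCI libraries, against 5628 to 8687 FPKM in the naive libraries and 7295 to 62761 FPKM in the saline libraries. The neutrophil sum exceeded the microglial sum in saline_fixed replicates 5 and 6 and in saline_escalating replicate 9, and S100a8 alone exceeded Tmem119 in every library but those of CCI_2dpi. Markers of oligodendrocyte precursors (Pdgfra and Cspg4) summed to 0.0522 to 0.532 FPKM in the CCI libraries, 0.177 to 0.200 FPKM in the naive libraries and 0 to 1.26 FPKM in the saline libraries.

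The controls were not alike, and the CCI libraries lay near the naive ones. Correlation of log2(FPKM + 1) was 0.943 to 0.975 among the CCI libraries, 0.928 to 0.979 between CCI and naive libraries and 0.814 to 0.915 between CCI and saline libraries. Cst3, the abundant microglial cysteine protease inhibitor cystatin C, had 10120.4 to 17870.0 FPKM in the CCI libraries, against 17341 and 16975 FPKM in the naive ones and 40841 to 65263 FPKM in the saline ones. The gene Lars2, whose product charges the leucine tRNA of mitochondria, had 1040.3 to 5148 FPKM in the CCI libraries, against 3202 and 2163 FPKM in the naive ones and 26.1 to 278 FPKM in the saline ones. No read counts are given, so depth is unknown. An index that falls as depth rises, the 5th percentile of nonzero FPKM times transcript length in kilobases, was 0.0933 to 0.215 in CCI, 0.0977 to 0.269 in naive and 0.256 to 0.618 in saline libraries. Between 9655 and 10219 genes reached 1 FPKM in the CCI libraries, against 9536 to 10068 in the naive and 9215 to 9987 in the saline libraries. The library closest to CCI_2dpi replicate 1 among all 30 was SNT_7dpi replicate 2, from a sciatic nerve transection group (correlation 0.988, with 0 identical nonzero values). Its correlation with CCI_2dpi replicate 2 was 0.943. Because the kinds of control differed, the main results below are also given against the 2 naive and the 7 saline libraries apart. The part that treatment, handling or depth of the saline libraries had in a result was not tested.

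In the 4 CCI libraries against the 9 controls, 605 of 11125 genes were higher (5.44%) and 93 were lower (0.836%). The test was limma on log2(FPKM + 1) with Benjamini-Hochberg adjustment over all genes and an adjusted p under 0.05, and an overall share of 6.27% passed it. Log2 differences are differences of mean log2(FPKM + 1), with CCI minus control, and understate the change of low genes. Over all genes the median difference was 0.18, and 63.9% were positive. In 262 called genes (2.36%) the 4 CCI libraries and the 9 controls did not overlap, 238 of them higher (2.14%) and 24 lower (0.216%). Against the naive libraries alone, with the spread taken from all 13, 0 genes were called and 228 had an unadjusted p under 0.05 (2.05%). Against the saline libraries alone, 1955 were higher (17.6%) and 626 were lower (5.63%).

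The genes called higher had a median difference of 0.52 against naive and 1.49 against saline, and the genes called lower had medians of -0.43 and -1.49. Over all genes the medians against naive and saline were 0.14 and 0.19. The called genes were chosen by their difference from 9 controls of which 7 were saline. That choice favours larger differences from saline, in these medians and in the counts below. Of the 605 higher genes, 259 lay above both naive libraries in every CCI library, and 514 lay above every saline library. Among all genes 11.2% and 13.3% did so. Of the 93 lower genes, 28 lay below both naive libraries and 82 below every saline library. Among all genes 2.12% and 3.85% did so. Clearing 2 naive libraries is easier than clearing 7 saline ones, so these counts cannot be compared with each other. A difference of at least 1 on the log2 scale was reached against naive by 86 higher and 10 lower genes, and against saline by 556 and 83.

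**Figure D1:**
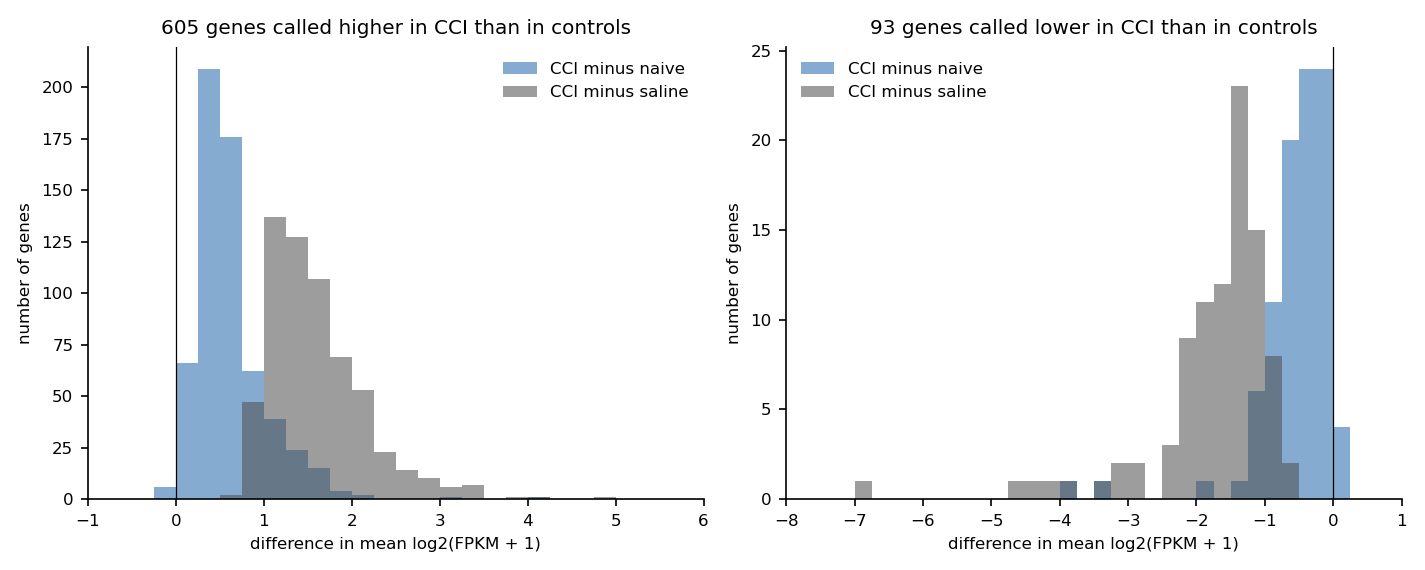
Number of genes by difference in mean log2(FPKM + 1), CCI minus naive (blue) and CCI minus saline (grey), for the 605 genes called higher (left) and the 93 called lower (right) in CCI than in the 9 controls. Differences from naive have medians of 0.52 and -0.43, nearer 0 than the differences from saline, with medians of 1.49 and -1.49. Of the 9 controls by which these genes were chosen 7 were saline, which favours larger differences from saline. Over all genes the medians against naive and saline were 0.14 and 0.19.

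The number of calls moved with single libraries and with scaling. It was 1366 without naive replicate 1, 1748 without naive replicate 2, 43, 0, 24 and 33 without saline_fixed replicates 3, 4, 5 and 6, and 33, 0 and 435 without saline_escalating replicates 7, 8 and 9. It was 89 and 0 without CCI_2dpi replicates 1 and 2, and 3 and 336 without CCI_7dpi replicates 1 and 2. Every call of CCI against the 9 controls named below is therefore lost when saline_fixed replicate 4, saline_escalating replicate 8 or CCI_2dpi replicate 2 is left out. Higher genes made up 86.7% of the 698 calls, 54.3% of 188 calls after quantile normalization and 57.4% of 47 calls after median-ratio scaling, which moved the median difference of all genes from 0.18 to -0.03 and -0.0022; rescaling to TPM moved it to 0.39.

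Of all gene lists examined, DNA replication had the most members higher in CCI. Cells copy their DNA after the MCM proteins, loaded on origins as a ring of Mcm2 to Mcm7, open the double helix. Transcription of these genes is driven in late G1 by E2F factors, and genes of mitosis are switched on later through a promoter element called CHR. Promoters of 4 of the genes described next are shown because they carry those elements, with windows running from 250 bases before to 50 after the start (RefSeq, GRCm38.p6, written in the direction of transcription). Capitals mark E2F motifs (TTCCCGC or TTGGCGC) and the CHR motif (TTTGAA), each found on either strand and so also as its reverse complement. Overlapping matches run together in capitals.
Mcm6 (chr1:128359656-128359955, minus strand): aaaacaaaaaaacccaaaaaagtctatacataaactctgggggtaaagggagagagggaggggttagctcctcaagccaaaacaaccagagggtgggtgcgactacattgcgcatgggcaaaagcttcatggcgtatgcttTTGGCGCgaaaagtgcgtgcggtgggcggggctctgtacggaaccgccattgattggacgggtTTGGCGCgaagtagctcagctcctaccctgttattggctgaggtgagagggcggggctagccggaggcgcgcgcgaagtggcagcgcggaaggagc
Mcm3 (chr1:20820263-20820562, minus strand): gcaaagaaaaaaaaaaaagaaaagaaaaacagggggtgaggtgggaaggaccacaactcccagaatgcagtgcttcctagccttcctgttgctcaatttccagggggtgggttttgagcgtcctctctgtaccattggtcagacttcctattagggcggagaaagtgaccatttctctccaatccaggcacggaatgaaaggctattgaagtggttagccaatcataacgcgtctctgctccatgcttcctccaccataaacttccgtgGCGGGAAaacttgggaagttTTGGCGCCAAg
Mki67 (chr7:135716330-135716629, minus strand): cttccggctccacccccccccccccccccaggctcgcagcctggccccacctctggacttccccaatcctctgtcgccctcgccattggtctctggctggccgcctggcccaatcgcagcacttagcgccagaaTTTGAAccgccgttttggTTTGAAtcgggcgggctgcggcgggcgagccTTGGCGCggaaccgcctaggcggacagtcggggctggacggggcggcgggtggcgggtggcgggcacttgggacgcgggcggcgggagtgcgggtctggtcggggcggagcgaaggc
Bub1b (chr2:118597961-118598260, plus strand): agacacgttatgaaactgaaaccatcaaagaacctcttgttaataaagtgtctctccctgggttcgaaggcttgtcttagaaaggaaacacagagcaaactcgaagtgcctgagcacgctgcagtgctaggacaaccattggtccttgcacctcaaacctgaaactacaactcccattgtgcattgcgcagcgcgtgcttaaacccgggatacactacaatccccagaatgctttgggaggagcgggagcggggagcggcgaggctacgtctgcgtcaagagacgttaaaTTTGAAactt

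Mcm6 holds 2 E2F motifs and Mcm3 holds 3. Mki67 holds 2 CHR motifs and 1 E2F motif, and Bub1b holds 1 CHR motif. Windows were found for 30 of 37 listed replication genes and 29 of 35 listed mitosis genes. An E2F motif was present in 17 of 35 replication windows (48.6%) and in 6 of 31 mitosis windows (19.4%), against 6.81% of all 32851 windows. CHR was present in 24 of 31 mitosis windows (77.4%) and 4 of 35 replication windows (11.4%), against 17.9% of all. A match is a run of letters and not evidence of binding.

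Of 36 replication genes tested, 17 were higher in CCI than in controls (47.2%, against 5.44% of all genes) and 0 were lower. A positive difference was found in 35 (63.9% of all genes had one), with a median of 1.30. In 7 of the 36 the CCI libraries lay above all 9 controls, where 4.23% of all genes did so. Mcm6 (chr1:128331590-128359664, minus strand) had 41.5 and 47.1 FPKM in CCI_2dpi and 60.3 and 16.6 FPKM in CCI_7dpi libraries, against 7.33 and 15 FPKM in the naive ones and 3.69 to 11 FPKM (median 7.11) in the saline ones. Every CCI library lay above every control, and CCI_7dpi replicate 2 was the lowest of the 4. The difference was 2.23 ± 0.36 (SE; adjusted p = 0.0219), and it was 1.74 ± 0.49 against naive and 2.38 ± 0.36 against saline. Mcm2 (chr6:88883474-88898780, minus strand) had 21.5 and 24.5 FPKM in CCI_2dpi and 30.9 and 7.83 FPKM in CCI_7dpi libraries, against 3.73 and 7.55 FPKM in the naive ones and 1.60 to 7.08 FPKM (median 3.50) in the saline ones. The same library was again the lowest of the CCI libraries, just above the highest control. Its difference was 2.05 ± 0.37 (SE; adjusted p = 0.023), and 1.66 ± 0.52 against naive and 2.17 ± 0.38 against saline.

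Mcm4 followed with 19.5 and 17.5 FPKM in CCI_2dpi and 23 and 9.07 FPKM in CCI_7dpi libraries, against 5.41 and 8.06 FPKM in the naive ones and 1.95 to 6.74 FPKM (median 4.07) in the saline ones, which did not overlap. Its difference was 1.64 ± 0.30 (SE; adjusted p = 0.023). Mcm3 had 48.2 and 46.7 FPKM in CCI_2dpi and 61.7 and 22.1 FPKM in CCI_7dpi libraries, against 15.5 and 22.8 FPKM in the naive ones and 8.44 to 20.2 FPKM (median 13.9) in the saline ones, where CCI_7dpi replicate 2 fell just under the higher naive library. Its difference was 1.47 ± 0.29 (SE; adjusted p = 0.0292). For Mcm5 the difference was 2.15 ± 0.43 (SE; adjusted p = 0.0314) and for Mcm7 it was 1.18 ± 0.34 (SE; adjusted p = 0.0494), and in both CCI_7dpi replicate 2 lay within the controls. Fewer dividing cells in a sample and less of such RNA per cell cannot be told apart in bulk libraries.

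In other replication genes too, CCI_7dpi replicate 1 was the highest and CCI_7dpi replicate 2 the lowest of the CCI libraries. Uhrf1, which brings the maintenance DNA methyltransferase to newly copied DNA, had 7.11 and 20.7 FPKM in CCI_2dpi and 31.7 and 4.61 FPKM in CCI_7dpi libraries, against 1.95 and 5.11 FPKM in the naive ones and 0.902 to 3.81 FPKM (median 1.12) in the saline ones. Its difference was 2.26 ± 0.44 (SE; adjusted p = 0.0292). Fen1, the nuclease that trims flaps from the lagging strand, had 13.9 to 50.6 FPKM in the CCI libraries, against 5.71 and 12.5 FPKM in the naive ones and 3.01 to 15.7 FPKM in the saline ones, with a difference of 1.68 ± 0.37 (SE; adjusted p = 0.033). Lig1, which seals that strand, had 6.70 to 25.5 FPKM in the CCI libraries, against 1.70 and 4.71 FPKM in the naive ones and 0.389 to 4.52 FPKM in the saline ones, with a difference of 1.88 ± 0.42 (SE; adjusted p = 0.033). Rfc4, a subunit of the clamp loader, was listed at 10.2 and 19.1 FPKM in CCI_2dpi and 25.1 and 0 FPKM in CCI_7dpi and at 0 in all 9 controls, so no fold is given. It passed the filter on low values only through CCI libraries, and its call, 1 of the 17, supports nothing.

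Genes of mitosis split the CCI libraries. All 35 tested had a positive difference from controls (63.9% of all genes did), with a median of 1.60. Of them 8 were higher (22.9%, against 5.44% of all genes) and 0 lower. In 0 of them did the CCI libraries lie above all controls, where 4.23% of all genes did so. Foxm1, the transcription factor that drives entry into mitosis, had 2.05 and 15.9 FPKM in CCI_2dpi and 23.8 and 4.59 FPKM in CCI_7dpi libraries, against 0.785 and 4.40 FPKM in the naive ones and 0 to 0.551 FPKM (median 0.284) in the saline ones. CCI_2dpi replicate 2 and CCI_7dpi replicate 1 stood above every control, CCI_7dpi replicate 2 lay just above naive replicate 2, and CCI_2dpi replicate 1 lay between the naive libraries. The difference was 2.56 ± 0.50 (SE; adjusted p = 0.0292), and 1.57 ± 0.64 against naive and 2.85 ± 0.46 against saline. Foxm1 passed the filter on low values only through CCI libraries, so its call, 1 of the 8, supports nothing. Mki67, the gene of the proliferation antigen Ki-67, had 2.29 and 23.1 FPKM in CCI_2dpi and 47.9 and 6.06 FPKM in CCI_7dpi libraries, against 1.10 and 8.24 FPKM in the naive ones and 0.949 to 2.01 FPKM (median 1.21) in the saline ones, with a difference of 2.26 ± 0.55 (SE; adjusted p = 0.0355). Here CCI_2dpi replicate 1 and CCI_7dpi replicate 2 were both below naive replicate 2.

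Bub1b, a checkpoint kinase of the spindle, had 2.93 and 24.7 FPKM in CCI_2dpi and 33.1 and 5.88 FPKM in CCI_7dpi libraries, against 1.06 and 6.59 FPKM in the naive ones and 0 to 2.90 FPKM (median 1.2) in the saline ones, and its difference was 2.38 ± 0.58 (SE; adjusted p = 0.0355). Kif2c, a kinesin that takes microtubules apart at the centromere, had 6.17 and 17.2 FPKM in CCI_2dpi and 21.4 and 4.24 FPKM in CCI_7dpi libraries, against 1.62 and 6.33 FPKM in the naive ones and 0.365 to 2.51 FPKM (median 1.27) in the saline ones, and its difference was 2.10 ± 0.43 (SE; adjusted p = 0.0314). In both genes CCI_2dpi replicate 1 and CCI_7dpi replicate 2 fell below naive replicate 2. The mean log2(FPKM + 1) of the mitosis list was 1.55 and 4.55 in CCI_2dpi replicates 1 and 2 and 4.93 and 2.46 in CCI_7dpi replicates 1 and 2. It was 1.14 and 2.77 in the naive libraries and 0.984 to 2.49 in the saline libraries. For the replication list these means were 2.78 and 3.76 at 2 dpi and 4.19 and 2.28 at 7 dpi, against 1.73 and 2.48 in naive and 1.5 to 2.40 in saline. Thus 1 library of each day was high on the mitosis list and the other lay within the controls.

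Without CCI_2dpi replicate 2 the median difference of the mitosis list was 0.94 over all CCI libraries and -0.18 at 2 dpi. Without CCI_7dpi replicate 1 it was 1.05 over all CCI libraries and 0.77 at 7 dpi, in place of 1.85. The replication list kept medians of 1.07 and 0.83 without those libraries, and its 7 dpi median was 0.41 without CCI_7dpi replicate 1, in place of 1.30. Against naive alone the medians were 1.10 for replication and 1.45 for mitosis, where all genes had 0.14, and 0 members of either list were called. After quantile normalization and median-ratio scaling the medians were 1.10 and 1.15 for replication and 1.41 and 1.43 for mitosis.

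**Figure D2:**
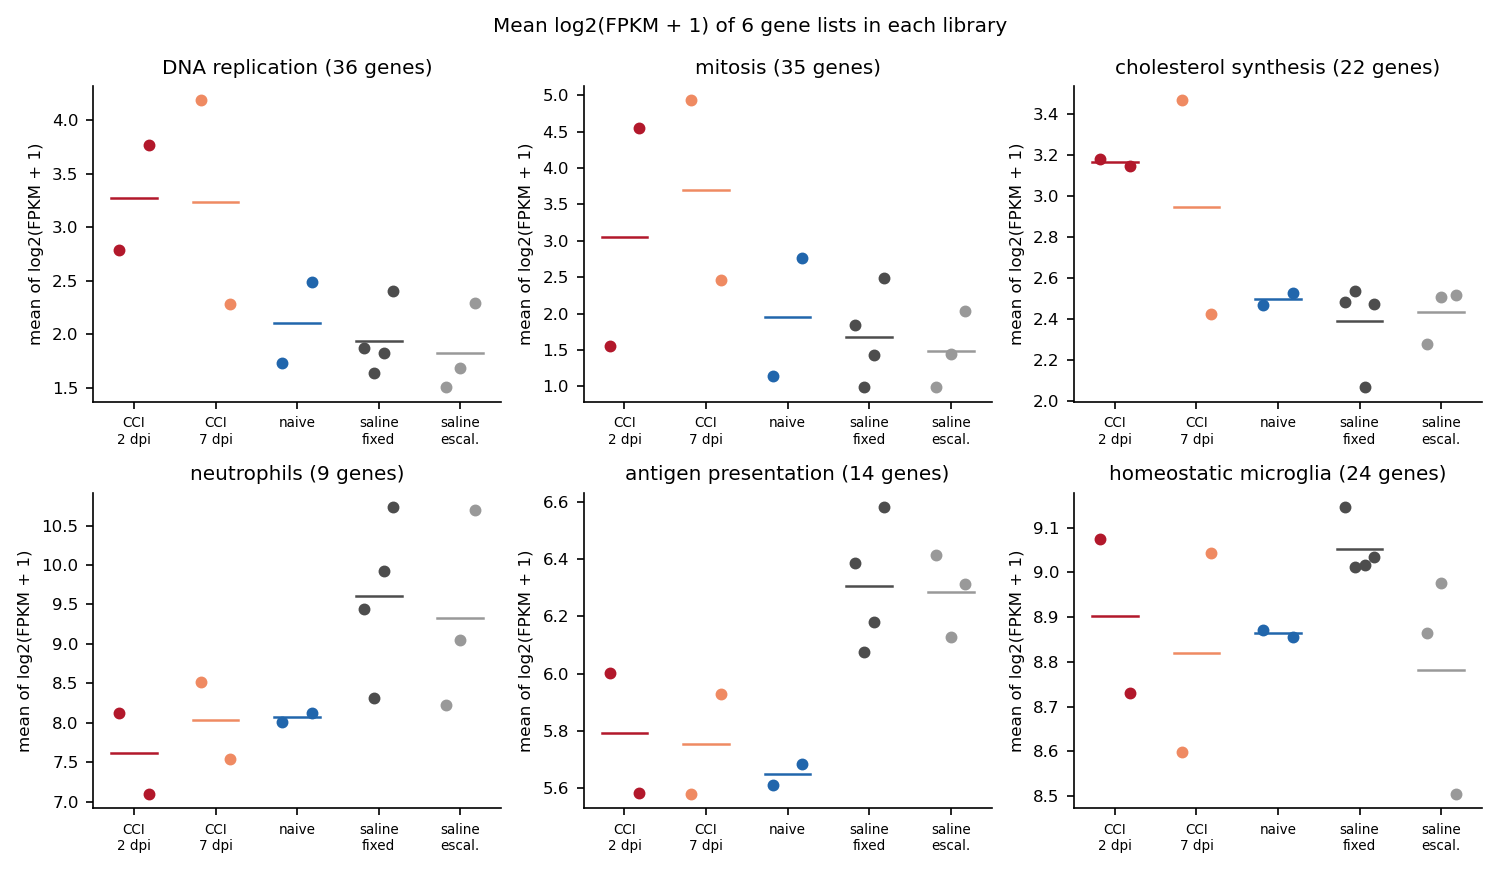
Mean log2(FPKM + 1) of the tested genes of 6 lists in each library (points), with the group mean as a line, for CCI at 2 and 7 dpi, naive, fixed saline and escalating saline. On the mitosis list CCI_2dpi replicate 2 (4.55) and CCI_7dpi replicate 1 (4.93) lie above all 9 controls (0.984 to 2.77), and the other CCI libraries (1.55 and 2.46) lie within them; the y axes do not start at 0.

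Chemokines and growth factors moved both ways. Of 15 cytokine and chemokine genes tested, 4 were higher (26.7%, against 5.44% of all genes), which were Tgfb1, Ccl2, Ccl12 and Csf1. The 2 lower ones were Il6 and Ccl9 (0.836% of all genes were lower). The list median was -0.17, and 0.11 without CCI_2dpi replicate 2. Ccl12 (chr11:82101845-82103400, plus strand), a monocyte-attracting chemokine close to Ccl2, had 633 and 238 FPKM in CCI_2dpi and 287 and 103 FPKM in CCI_7dpi libraries, against 90.8 and 126 FPKM in the naive ones and 20.8 to 81.3 FPKM (median 32.2) in the saline ones. The CCI libraries at 2 dpi and CCI_7dpi replicate 1 lay above all controls, and CCI_7dpi replicate 2 lay between the naive libraries. The difference was 2.52 ± 0.47 (SE; adjusted p = 0.0269), and 1.26 ± 0.53 against naive and 2.88 ± 0.39 against saline. Ccl2 (chr11:82035571-82037453, plus strand), the main ligand of the monocyte receptor Ccr2, had 23.3 and 10.9 FPKM in CCI_2dpi and 16.2 and 6.17 FPKM in CCI_7dpi libraries, against 1.70 and 3.88 FPKM in the naive ones and 0 to 9.39 FPKM (median 0.629) in the saline ones. Its range overlapped the controls through 1 saline library, and its difference was 2.48 ± 0.54 (SE; adjusted p = 0.0314). Csf1, the growth factor of microglia, had 7.62 and 5.78 FPKM in CCI_2dpi and 7.61 and 6.96 FPKM in CCI_7dpi libraries, against 3.60 and 6.45 FPKM in the naive ones and 0.719 to 2.67 FPKM (median 1.54) in the saline ones. The naive library with the higher value lay within the CCI range, and the difference of 1.41 ± 0.33 (SE; adjusted p = 0.0344) was 0.44 ± 0.35 against naive and 1.69 ± 0.25 against saline.

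Ccl9 and Ccl6, neighbouring CC chemokine genes on chr11, were lower in CCI. Ccl9 had 12 and 21.0 FPKM in CCI_2dpi and 12.8 and 29.6 FPKM in CCI_7dpi libraries, against 43.6 and 22.7 FPKM in the naive ones and 44.2 to 74.6 FPKM (median 60.4) in the saline ones, with a difference of -1.49 ± 0.30 (SE; adjusted p = 0.0314). Ccl6 had 59.0 and 67.6 FPKM in CCI_2dpi and 46.0 and 85.4 FPKM in CCI_7dpi libraries, against 141 and 85.2 FPKM in the naive ones and 133 to 244 FPKM (median 174) in the saline ones, with a difference of -1.3 ± 0.25 (SE; adjusted p = 0.0292). Naive replicate 2 lay within the CCI range for Ccl9 and just under its top for Ccl6. Tgfb1, which encodes the cytokine that keeps microglia in their resting identity, had 97.5 and 104 FPKM in CCI_2dpi and 94.3 and 112 FPKM in CCI_7dpi libraries, against 74.9 and 72.8 FPKM in the naive ones and 2.71 to 16.6 FPKM (median 11.6) in the saline ones. The naive libraries were far closer to CCI than to saline, and the difference of 2.69 ± 0.64 (SE; adjusted p = 0.0344) was 0.46 ± 0.51 against naive and 3.33 ± 0.37 against saline. Unlike Il6, counted among the lower calls above, the proinflammatory cytokines Il1b and Tnf were not called. Values of Il6 are not reported here. Il1b had 0.966 to 4.13 FPKM in the CCI libraries, against 1.21 and 2.32 FPKM in the naive ones and 3.76 to 89.9 FPKM in the saline ones, and its difference was -1.40 ± 0.71 (SE; adjusted p = 0.213). Tnf had 1.63 to 2.84 FPKM in the CCI libraries, against 1.42 and 1.47 FPKM in the naive ones and 1.30 to 7.07 FPKM in the saline ones, and its difference was -0.17 ± 0.33 (SE; adjusted p = 0.775).

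Secreted and matrix genes gave 4 higher (26.7%, against 5.44% of all genes) and 0 lower calls among 15 tested. The list median was 0.18, as over all genes, and 0.40 without CCI_7dpi replicate 1. Mmp2 (chr8:92827291-92853420, plus strand), a gelatinase that cuts basement membrane collagen, had 13.3 and 14.2 FPKM in CCI_2dpi and 16.4 and 21.2 FPKM in CCI_7dpi libraries, against 8.72 and 6.98 FPKM in the naive ones and 2.65 to 6.30 FPKM (median 4.86) in the saline ones. All CCI libraries exceeded all controls, and the difference was 1.45 ± 0.24 (SE; adjusted p = 0.0229). Against each kind of control it was 0.95 ± 0.30 against naive and 1.59 ± 0.22 against saline. Gas6, a ligand of the phagocytic receptors Axl and Mertk, had 187 and 87.2 FPKM in CCI_2dpi and 113 and 106 FPKM in CCI_7dpi libraries, against 62.0 and 76.7 FPKM in the naive ones and 31.2 to 69.1 FPKM (median 58.3) in the saline ones, without overlap. Its difference was 1.04 ± 0.24 (SE; adjusted p = 0.0332). Lamb2, a laminin chain, had 4.63 to 9.89 FPKM in the CCI libraries, against 3.98 and 5.35 FPKM in the naive ones and 0.890 to 3.67 FPKM in the saline ones, and its difference was 1.18 ± 0.32 (SE; adjusted p = 0.0451).

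Genes outside that list with low p-values at 7 dpi included another secreted protease, a matrix protein and a receptor. Htra3 (chr5:35652023-35679782, minus strand), a secreted serine protease, had 14 and 30.6 FPKM in CCI_2dpi and 38.5 and 39.8 FPKM in CCI_7dpi libraries, against 10.7 and 15.9 FPKM in the naive ones and 2.87 to 6.31 FPKM (median 5.54) in the saline ones. CCI_2dpi replicate 1 lay between the naive libraries and the other CCI libraries lay above all controls. Its difference was 2.08 ± 0.35 (SE; adjusted p = 0.0229), and 1.07 ± 0.36 against naive and 2.37 ± 0.26 against saline. Npnt (nephronectin), a matrix ligand of integrins, had 13.4 and 19.3 FPKM in CCI_2dpi and 20.6 and 42.2 FPKM in CCI_7dpi libraries, against 15.1 and 10.4 FPKM in the naive ones and 5.19 to 11.4 FPKM (median 8.56) in the saline ones, and its difference was 1.23 ± 0.26 (SE; adjusted p = 0.0314). Pdcd1 (chr1:94038305-94052553, minus strand), which encodes the inhibitory receptor PD-1, had 12.3 and 19.5 FPKM in CCI_2dpi and 24.7 and 20.6 FPKM in CCI_7dpi libraries, against 8.76 and 8.23 FPKM in the naive ones and 2.66 to 8.78 FPKM (median 4.37) in the saline ones. The groups did not overlap, and the difference was 1.61 ± 0.29 (SE; adjusted p = 0.023), with 1.05 ± 0.37 against naive and 1.77 ± 0.27 against saline.

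Lysosomal genes gave 2 higher calls among 22 tested (9.09%), near the 5.44% of all genes. The list median of 0.20 was 0.08 without CCI_7dpi replicate 2 and 0.33 without CCI_7dpi replicate 1, and over all genes it was 0.18. Gusb (chr5:129989011-130003049, minus strand), the enzyme β-glucuronidase, had 182 and 199 FPKM in CCI_2dpi and 232 and 186 FPKM in CCI_7dpi libraries, against 100.03 and 123 FPKM in the naive ones and 63.1 to 99.7 FPKM (median 85.9) in the saline ones. Its lowest CCI library exceeded its highest control, and its difference was 1.17 ± 0.18 (SE; adjusted p = 0.0219), with 0.84 ± 0.23 against naive and 1.26 ± 0.17 against saline. Ctsc, a cathepsin that activates serine proteases, had 232 to 389 FPKM in the CCI libraries, against 237 and 241 FPKM in the naive ones and 125 to 195 FPKM in the saline ones. One CCI library lay just below both naive ones, and the difference was 0.88 ± 0.22 (SE; adjusted p = 0.0364). Klhl6, an adaptor of a ubiquitin ligase, had 98.6 and 88.1 FPKM in CCI_2dpi and 102 and 92.6 FPKM in CCI_7dpi libraries, against 52.8 and 62.8 FPKM in the naive ones and 36.8 to 54.2 FPKM (median 49.3) in the saline ones, without overlap, and its difference was 0.94 ± 0.17 (SE; adjusted p = 0.023). Nup210, a membrane protein of the nuclear pore, had 7.66 and 10.4 FPKM in CCI_2dpi and 16.6 and 5.48 FPKM in CCI_7dpi libraries, against 2.11 and 4.39 FPKM in the naive ones and 0.381 to 2.45 FPKM (median 1.37) in the saline ones, and its difference was 2.01 ± 0.35 (SE; adjusted p = 0.023).

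**Figure D3:**
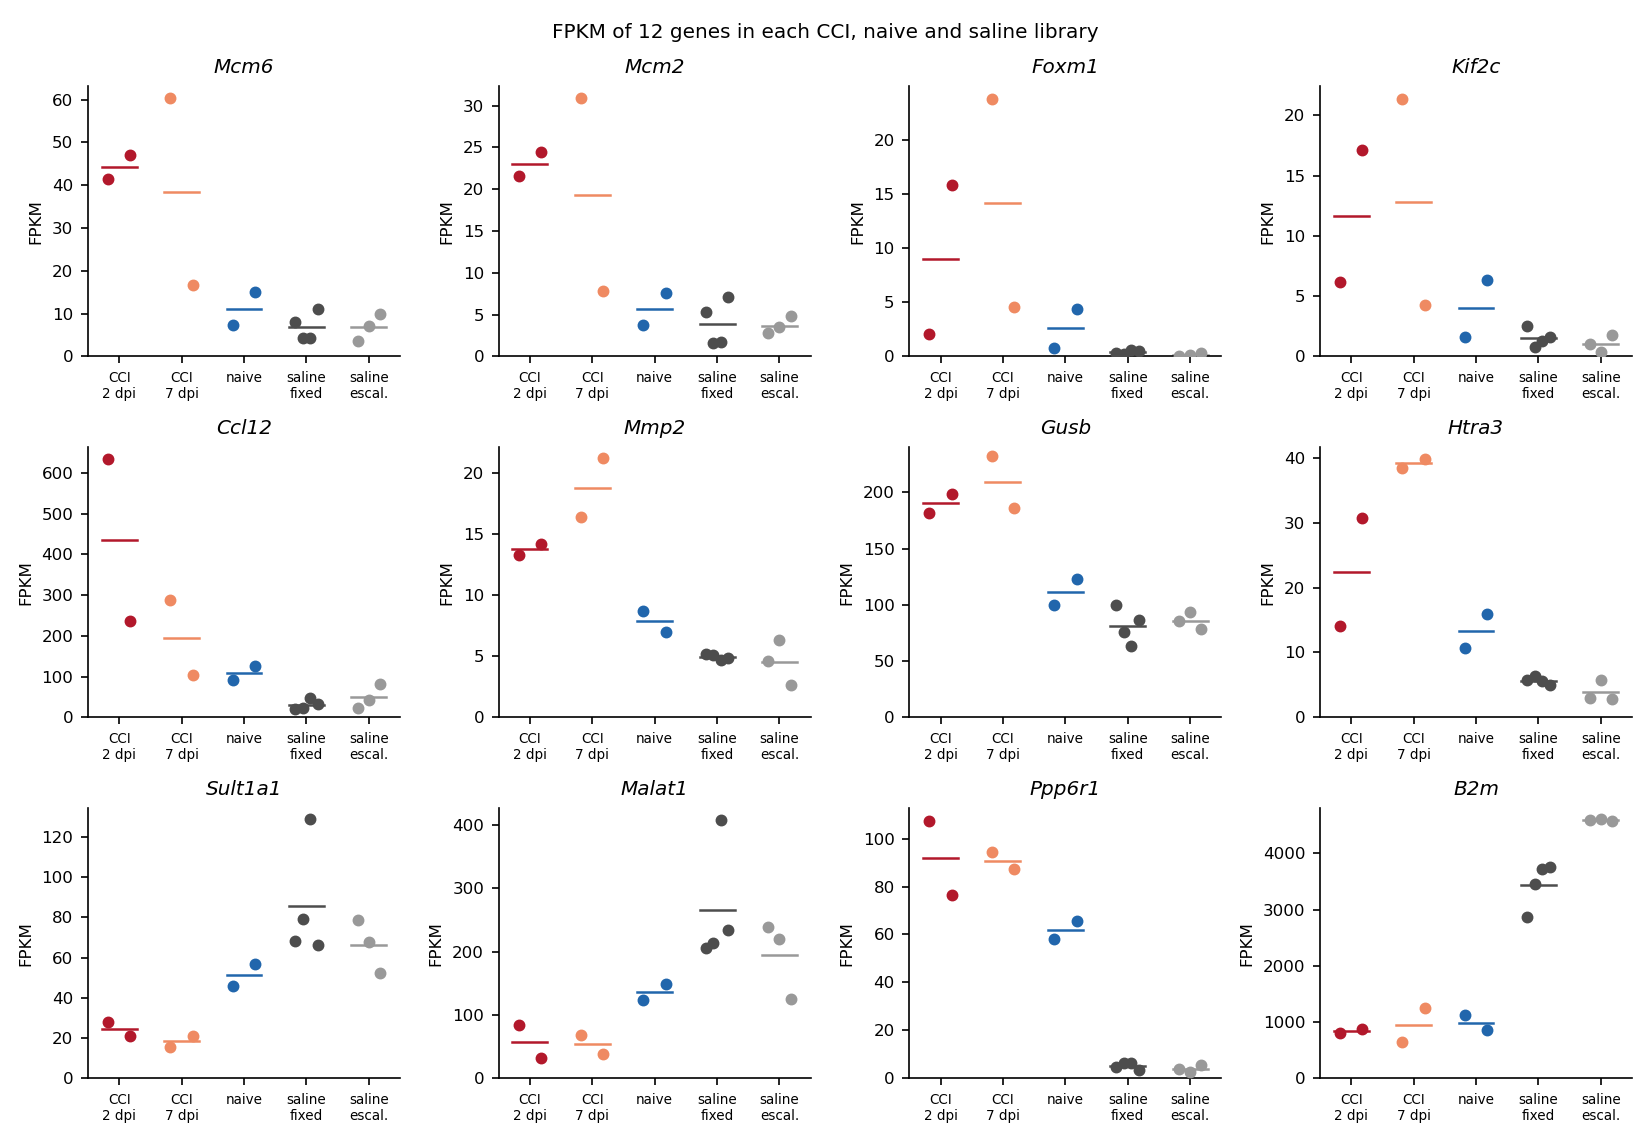
FPKM of 12 genes in each library (points) with the group mean as a line, for CCI at 2 and 7 dpi, naive, fixed saline and escalating saline. Mcm6, Mcm2, Mmp2 and Gusb lie above and Sult1a1 and Malat1 below every control in all 4 CCI libraries, while Ppp6r1 and B2m show naive libraries near CCI and apart from saline.

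The largest positive differences belonged mostly to genes whose saline values were low. Of 208 called genes with a group mean of at least 5 FPKM and no overlap, the 12 with the largest difference were Ppp6r1, Slc7a5, Cenpb, Tgfb1, Zdhhc5, Cpd, D17H6S56E-5, Atp2a2, Spns2, Adap1, Mcm6 and Khsrp. Ppp6r1 (chr7:4631495-4659019, minus strand), a regulatory subunit of protein phosphatase 6, had 108 and 76.4 FPKM in CCI_2dpi and 94.3 and 87.1 FPKM in CCI_7dpi libraries, against 58.0 and 65.8 FPKM in the naive ones and 2.75 to 6.58 FPKM (median 4.54) in the saline ones. It was higher in CCI than in naive by far less than in CCI than in saline, with 0.55 ± 0.30 against naive and 4.04 ± 0.22 against saline and 3.26 ± 0.68 (SE; adjusted p = 0.0314) against all controls. Slc7a5 (chr8:121881150-121907694, minus strand), a carrier of large neutral amino acids, had 95.1 and 64.7 FPKM in CCI_2dpi and 63.2 and 38.2 FPKM in CCI_7dpi libraries, against 30.4 and 36.7 FPKM in the naive ones and 3.05 to 10.1 FPKM (median 5.09) in the saline ones. Its difference was 2.74 ± 0.52 (SE; adjusted p = 0.0273), and 0.88 ± 0.38 against naive and 3.27 ± 0.28 against saline.

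By the mean of log2(FPKM + 1), the same order of CCI, naive and saline held for the other genes of those 12. For Mcm6, however, a naive library lay within the saline range. Spns2, the exporter of sphingosine-1-phosphate, had 26.4 and 32.9 FPKM in CCI_2dpi and 42.7 and 32.2 FPKM in CCI_7dpi libraries, against 17.1 and 21.0 FPKM in the naive ones and 2.42 to 5.57 FPKM (median 4.35) in the saline ones, with a difference of 2.37 ± 0.44 (SE; adjusted p = 0.0247). Cpd, carboxypeptidase D, had 20.6 to 35.6 FPKM in the CCI libraries, against 10.8 and 15 FPKM in the naive ones and 0.892 to 3.21 FPKM in the saline ones, with a difference of 2.56 ± 0.46 (SE; adjusted p = 0.023). In each of these genes the naive values were nearer to CCI than the saline values were. Atp2a2, the SERCA2 calcium pump, had 40.7 to 73.1 FPKM in the CCI libraries, against 28.4 and 39.5 FPKM in the naive ones and 4.36 to 9.31 FPKM in the saline ones, with a difference of 2.39 ± 0.48 (SE; adjusted p = 0.0314). Cenpb, a centromere protein, had 21.9 to 31.0 FPKM in the CCI libraries, against 20.5 and 20.7 FPKM in the naive ones and 0.147 to 3.02 FPKM in the saline ones, with a difference of 2.72 ± 0.63 (SE; adjusted p = 0.034). D17H6S56E-5 had 66.8 to 216 FPKM in the CCI libraries, against 45.9 and 61.5 FPKM in the naive ones and 9.63 to 17.0 FPKM in the saline ones, with a difference of 2.50 ± 0.44 (SE; adjusted p = 0.023). The position of D17H6S56E-5 is not given here. Zdhhc5, a palmitoyltransferase, was listed at 0 in 3 saline libraries, and its difference of 2.68 ± 0.77 (SE; adjusted p = 0.0493) was 0.42 ± 0.80 against naive and 3.33 ± 0.58 against saline. For Adap1 the difference was 2.28 ± 0.50 (SE; adjusted p = 0.033). For Khsrp, an RNA-binding splicing and decay factor, it was 2.11 ± 0.45 (SE; adjusted p = 0.0314).

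The 12 largest negative differences among 21 such genes were those of Clec4d, H2-Eb1, Malat1, S100a10, 1600010M07Rik, Sult1a1, Tnfrsf17, Ucp2, Supt4a, Rac3, Map1lc3a and Dleu2. Sult1a1 (chr7:126672865-126676432, minus strand), a phenol sulfotransferase, had 28 and 21.0 FPKM in CCI_2dpi and 15.8 and 21.3 FPKM in CCI_7dpi libraries, against 45.7 and 56.9 FPKM in the naive ones and 52.6 to 129 FPKM (median 68.5) in the saline ones. The CCI libraries fell below all 9 controls. The difference was -1.66 ± 0.24 (SE; adjusted p = 0.0219), and -1.24 ± 0.31 against naive and -1.78 ± 0.22 against saline. It belongs to a list of glucocorticoid-induced genes, in which it was the 1 member called among 19 tested (6.27% of all genes were called). Malat1 (chr19:5795690-5802672, minus strand), a nuclear long noncoding RNA, had 83.8 and 32.0 FPKM in CCI_2dpi and 69.0 and 38.4 FPKM in CCI_7dpi libraries, against 124 and 149 FPKM in the naive ones and 125 to 408 FPKM (median 220.0) in the saline ones. Its CCI and control ranges did not meet, and its difference was -1.93 ± 0.31 (SE; adjusted p = 0.0219), with -1.38 ± 0.41 against naive and -2.09 ± 0.30 against saline.

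S100a10, the partner of annexin A2, had 6.53 and 6.53 FPKM in CCI_2dpi and 6.20 and 1.85 FPKM in CCI_7dpi libraries, against 11.6 and 7.17 FPKM in the naive ones and 14.5 to 54.9 FPKM (median 28.2) in the saline ones, and its difference was -1.90 ± 0.42 (SE; adjusted p = 0.033). Clec4d, a C-type lectin receptor of myeloid cells, had 0.550 and 0.349 FPKM in CCI_2dpi and 0.618 and 0.128 FPKM in CCI_7dpi libraries, against 2.06 and 1.52 FPKM in the naive ones and 8.31 to 124 FPKM (median 21.6) in the saline ones. Its difference was -3.41 ± 0.77 (SE; adjusted p = 0.033), and -0.99 ± 0.74 against naive and -4.10 ± 0.53 against saline. Clec4d passed the filter on low values only through the controls, where it is high, so its call supports nothing. For S100a10 and Clec4d the naive libraries lay between CCI and saline. Ucp2, a mitochondrial carrier, had 175 to 221 FPKM in the CCI libraries, against 239.8 and 226 FPKM in the naive ones and 472 to 706 FPKM in the saline ones, with a difference of -1.24 ± 0.29 (SE; adjusted p = 0.0335). Tnfrsf17, the receptor BCMA of plasma cells, had 1.35 to 3.10 FPKM in the CCI libraries, against 5.07 and 3.12 FPKM in the naive ones and 7.25 to 17.5 FPKM in the saline ones, with a difference of -1.54 ± 0.34 (SE; adjusted p = 0.033). The other 5 had differences of -1.67 ± 0.30 for 1600010M07Rik, -1.24 ± 0.25 for Supt4a, -1.14 ± 0.30 for Rac3, -1.08 ± 0.25 for Map1lc3a and -1.08 ± 0.24 for Dleu2. Supt4a has a near-identical copy in the mouse genome, so its value is uncertain.

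**Figure D4:**
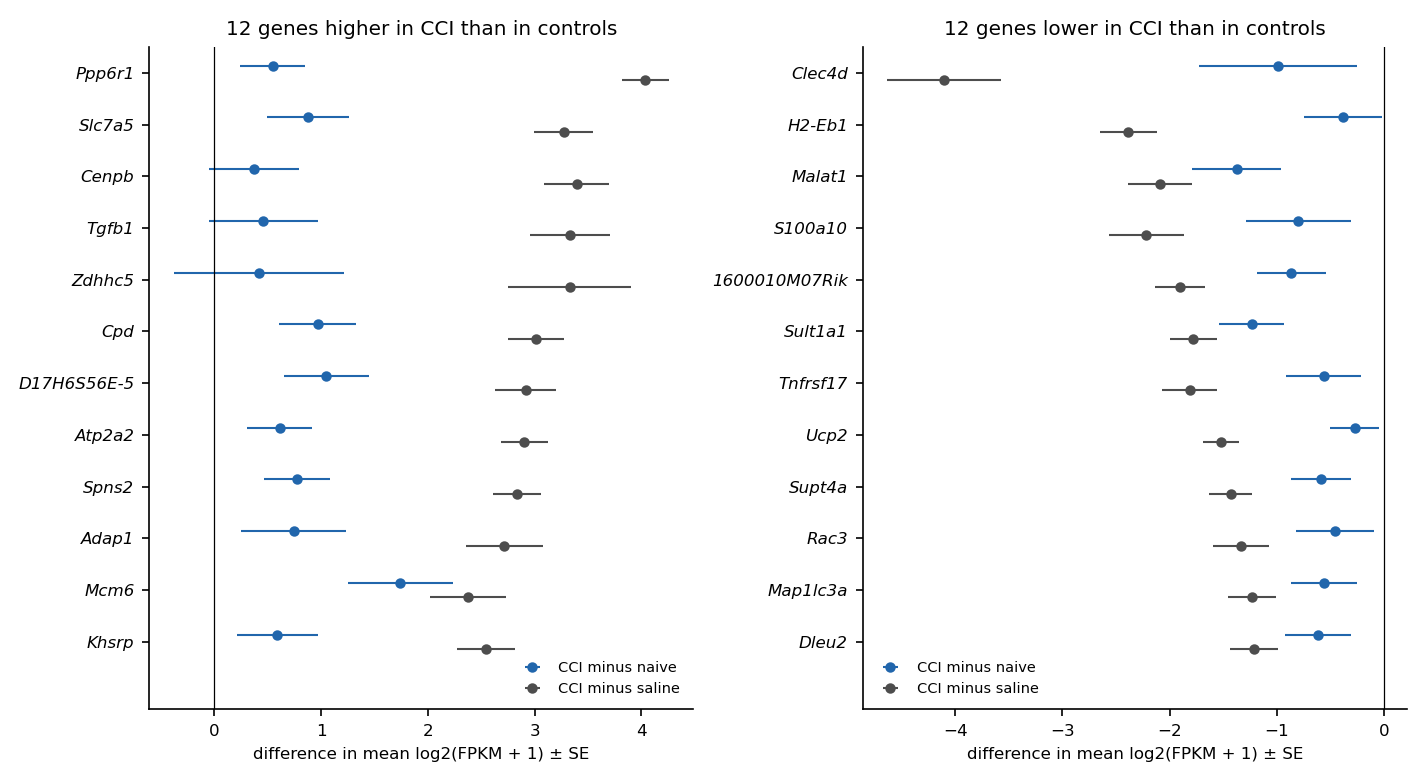
Difference in mean log2(FPKM + 1) with its standard error, CCI minus naive (blue) and CCI minus saline (grey), for the 12 genes with the largest positive (left) and the 12 with the largest negative (right) differences from the 9 controls. Mcm6, Malat1 and Sult1a1 differ from naive by 1.74, -1.38 and -1.24, whereas Ppp6r1, with 4.04 against saline, differs from naive by 0.55.

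Antigen presentation genes gave 0 higher and 3 lower calls among 14 tested (0.836% of all genes were lower). Their median was -0.19, or -0.30 without CCI_2dpi replicate 1 and -0.11 without CCI_2dpi replicate 2. B2m, the light chain of MHC class I, had 814 and 877 FPKM in CCI_2dpi and 643 and 1255 FPKM in CCI_7dpi libraries, against 1129 and 852 FPKM in the naive ones and 2869.7 to 4609 FPKM (median 3752) in the saline ones. The naive libraries lay inside the CCI range, and the difference of -1.71 ± 0.43 (SE; adjusted p = 0.0373) was -0.17 ± 0.30 against naive and -2.16 ± 0.22 against saline. H2-Eb1 (chr17:34305867-34316674, plus strand), a chain of MHC class II, had 6.26 and 3.8 FPKM in CCI_2dpi and 3.29 and 6.06 FPKM in CCI_7dpi libraries, against 6.44 and 6.39 FPKM in the naive ones and 21.9 to 52.5 FPKM (median 25.1) in the saline ones, and its difference was -1.94 ± 0.45 (SE; adjusted p = 0.0339). H2-Aa, the partner class II chain, had 6.94 to 15.1 FPKM in the CCI libraries, against 15.2 and 13 FPKM in the naive ones and 27.4 to 94.3 FPKM in the saline ones, with a difference of -1.58 ± 0.41 (SE; adjusted p = 0.0396). Against naive the list median was 0.18 with 0 calls.

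Fc receptors and their adaptors gave 2 lower calls among 9 tested (0.836% of all genes were lower). Fcgr3 (chr1:171051174-171064935, minus strand), a low-affinity receptor for IgG, had 426 and 325 FPKM in CCI_2dpi and 280.2 and 369 FPKM in CCI_7dpi libraries, against 480.4 and 512 FPKM in the naive ones and 709 to 959 FPKM (median 781) in the saline ones. All CCI values lay below all control values, and the difference was -1.07 ± 0.22 (SE; adjusted p = 0.0314), with -0.52 ± 0.23 against naive and -1.23 ± 0.17 against saline. Tyrobp, the signalling adaptor DAP12, had 885 and 939 FPKM in CCI_2dpi and 950.1 and 1086 FPKM in CCI_7dpi libraries, against 1273 and 1059 FPKM in the naive ones and 1823 to 4659 FPKM (median 2636) in the saline ones. Here naive replicate 2 lay within the CCI range, and the difference was -1.21 ± 0.33 (SE; adjusted p = 0.045). Complement genes gave 0 calls among 11. C4b, the component C4, had 9.17 to 21.9 FPKM in the CCI libraries, against 19.1 and 13.5 FPKM in the naive ones and 0 to 2.93 FPKM in the saline ones, and its difference from the controls was 2.23 ± 0.69 (SE; adjusted p = 0.058). C4b has a near-identical neighbour, C4a, so its value is uncertain.

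Cholesterol synthesis genes gave 3 higher (13.6%, against 5.44% of all genes) and 0 lower calls among 22 tested. Positive differences numbered 21 (63.9% of all genes had one), with a median of 0.61. In 0 of the 22 did the CCI libraries lie above all 9 controls, where 4.23% of all genes did so. Sqle, squalene epoxidase, had 8.19 and 9.27 FPKM in CCI_2dpi and 12.7 and 2.56 FPKM in CCI_7dpi libraries, against 2.16 and 2.29 FPKM in the naive ones and 0.0729 to 5.41 FPKM (median 2.39) in the saline ones, with a difference of 1.43 ± 0.40 (SE; adjusted p = 0.0472). CCI_7dpi replicate 2 lay within the controls, while the other 3 CCI libraries lay above them. Without CCI_7dpi replicate 1 the 7 dpi median of the list was 0.05, in place of 0.52.

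Endoplasmic reticulum stress genes gave 3 higher calls and 1 lower call among 15 tested, against 5.44% and 0.836% of all genes. Their median was 0.45. Hspa5, the chaperone BiP, had 284 to 538 FPKM in the CCI libraries, against 204 and 351 FPKM in the naive ones and 98.7 to 182 FPKM in the saline ones, and its difference was 1.29 ± 0.27 (SE; adjusted p = 0.0314). The disulfide isomerases Pdia4 and Pdia6 had differences of 1.27 ± 0.26 (SE; adjusted p = 0.0314) and 0.83 ± 0.21 (SE; adjusted p = 0.0372). Ddit3, which encodes the stress factor CHOP, was listed at 0 in the 4 CCI and the 2 naive libraries and had 11.8 to 44.6 FPKM in the 7 saline libraries. It passed the filter on low values only through the saline libraries, where it is high. A listed 0 can also be a failed estimate, so its call, the 1 lower call of the list, supports nothing. Of 16 heat shock genes 2 were higher, Hspa5 and Hspd1, a mitochondrial chaperonin with a difference of 0.88 ± 0.24 (SE; adjusted p = 0.0451). Fos, an immediate early gene, was the 1 member of its list called among 19 tested (6.27% of all genes were called). It had 2.61 and 0.980 FPKM in CCI_2dpi and 0.656 and 0.737 FPKM in CCI_7dpi libraries, against 3.60 and 2.99 FPKM in the naive ones and 2.27 to 7.51 FPKM (median 5.16) in the saline ones, and its difference was -1.31 ± 0.30 (SE; adjusted p = 0.0336). Fos passed the filter on low values only through control libraries, so its call supports nothing.

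Most genes of microglial identity did not pass the test. Of 24 homeostatic genes tested, 1 was higher and 3 were lower, against 5.44% and 0.836% of all genes. The median was 0.08, below the 0.18 of all genes, or 0.31 after quantile normalization and -0.14 after median-ratio scaling. It was -0.03 without saline_escalating replicate 9 and 0.22 without CCI_7dpi replicate 1. The higher one, Olfml3 (chr3:103722222-103738001, minus strand), a secreted microglial glycoprotein, had 1629.5 and 1696 FPKM in CCI_2dpi and 1827 and 1789 FPKM in CCI_7dpi libraries, against 1156 and 1172 FPKM in the naive ones and 589.6 to 1094 FPKM (median 814) in the saline ones. Its groups did not overlap, and the difference was 0.94 ± 0.21 (SE; adjusted p = 0.033), with 0.57 ± 0.25 against naive and 1.05 ± 0.18 against saline. The 3 lower ones were Cst3, Tyrobp and Crybb1. Cst3 had a difference of -1.49 ± 0.38 (SE; adjusted p = 0.0378), and -0.36 ± 0.32 against naive and -1.82 ± 0.23 against saline. Crybb1, a crystallin expressed by microglia, had a difference of -1.03 ± 0.29 (SE; adjusted p = 0.0482). In these 3 genes the naive values lay within or near the CCI range. Of 20 disease-associated microglial genes, Csf1 was higher, Ccl6 was lower and the median was -0.02, or -0.25 without CCI_7dpi replicate 2 and 0.23 without CCI_7dpi replicate 1.

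Genes tied to neuropathic pain in spinal microglia mostly failed the test. Of 31 tested, 2 were higher (Csf1 and Ccl2) and 1 was lower (Tyrobp), against 5.44% and 0.836% of all genes. The list median was 0.07, or -0.10 without CCI_2dpi replicate 1 and 0.18 without CCI_2dpi replicate 2. P2rx4, the ATP-gated channel, had 46.7 and 28.9 FPKM in CCI_2dpi and 36.9 and 43.8 FPKM in CCI_7dpi libraries, against 35.7 and 43.9 FPKM in the naive ones and 21.0 to 32.8 FPKM (median 23.7) in the saline ones. Its difference was 0.44 ± 0.22 (SE; adjusted p = 0.204), and -0.04 ± 0.27 against naive and 0.58 ± 0.19 against saline. Irf8 had 126 to 176 FPKM in the CCI libraries, against 94.9 and 126 FPKM in the naive ones and 90.9 to 219 FPKM in the saline ones, with a difference of 0.08 ± 0.23 (SE; adjusted p = 0.843). The ranges of P2rx4 and Irf8 in CCI overlapped those of the controls. Csf1r, the receptor of Csf1, had 2089 to 2834 FPKM in the CCI libraries, against 2547 and 2232 FPKM in the naive ones and 1447 to 3185 FPKM in the saline ones, with a difference of 0.22 ± 0.23 (SE; adjusted p = 0.556). Ctss, cathepsin S, had 3292 to 5371 FPKM in the CCI libraries, against 5194 and 4861 FPKM in the naive ones and 5424 to 7358 FPKM in the saline ones, with a difference of -0.47 ± 0.22 (SE; adjusted p = 0.175). Aif1, the gene of the microglial stain Iba1, had 268 to 293 FPKM in the CCI libraries, against 202 and 247 FPKM in the naive ones and 254 to 521 FPKM in the saline ones, with a difference of -0.18 ± 0.24 (SE; adjusted p = 0.664).

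Cx3cr1, the fractalkine receptor, had 612 to 1169 FPKM in the CCI libraries, against 727 and 935 FPKM in the naive ones and 756 to 1406 FPKM in the saline ones, with a difference of -0.42 ± 0.23 (SE; adjusted p = 0.251). Tlr4, the endotoxin receptor, had 26.1 and 22.4 FPKM in CCI_2dpi and 21.5 and 27.1 FPKM in CCI_7dpi libraries, against 32.6 and 23.9 FPKM in the naive ones and 5.00 to 17.1 FPKM (median 12.7) in the saline ones. Its naive and CCI values overlapped, and the difference was 0.74 ± 0.34 (SE; adjusted p = 0.17). Apoe had 441 to 1213 FPKM in the CCI libraries, against 1092 and 1131 FPKM in the naive ones and 591 to 3932 FPKM in the saline ones, with a difference of -0.59 ± 0.38 (SE; adjusted p = 0.331). None of these 3 genes passed the test. Itgax, an integrin of activated microglia, had 2.74 to 4.33 FPKM in the CCI libraries, against 1.5 and 2.67 FPKM in the naive ones and 1.64 to 3.06 FPKM in the saline ones, with a difference of 0.46 ± 0.22 (SE; adjusted p = 0.193). For P2ry12 and Tmem119 the differences were -0.02 ± 0.23 (SE; adjusted p = 0.968) and 0.05 ± 0.24 (SE; adjusted p = 0.912). Of the 14 genes read in every comparison, Mki67 was called in CCI against controls and 0 of the other 13 were.

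Among markers of other CD11b-positive cells, 2 neutrophil genes and 1 monocyte gene were lower in CCI than in controls. The share of all genes called lower was 0.836%. None of the 9 tested neutrophil genes had a positive difference from controls, 2 were lower and the median was -1.5. S100a8, an abundant neutrophil calcium-binding protein, had 700.1 and 948 FPKM in CCI_2dpi and 2269.7 and 1091 FPKM in CCI_7dpi libraries, against 3409 and 1642 FPKM in the naive ones and 2927 to 30884 FPKM (median 7486) in the saline ones, with a difference of -2.38 ± 0.59 (SE; adjusted p = 0.0369). Camp, the antimicrobial peptide cathelicidin, had a difference of -1.92 ± 0.50 (SE; adjusted p = 0.0398). The highest summed level was that of saline_escalating replicate 9, as given above. Against naive alone the median was -0.11. Of 7 monocyte genes 1 was lower, Plac8, with a difference of -1.84 ± 0.51 (SE; adjusted p = 0.0458), and the median was -1.17, or -0.15 against naive. Clec4d and S100a10 above are also expressed by neutrophils and monocytes, and the part of these cells in their differences was not tested. Nor was it tested for the other genes called lower.

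Border macrophage genes and genes of cells outside the myeloid line gave 0 calls. The median difference was -0.47 for 5 border macrophage genes, -0.15 for 6 astrocyte genes, -0.07 for 6 oligodendrocyte genes, -0.10 for 5 neuronal genes and -0.35 for 3 B cell genes. For T and NK cells and for red cells 1 gene each was tested, and 2 for endothelial and mural cells, with medians of -0.82, -0.14 and -0.82. The medians turned with 1 library. They were -0.65 for astrocytes, -0.46 for oligodendrocytes and -0.61 for neurons without CCI_2dpi replicate 1, and 0.34, 0.19 and 0.40 without CCI_2dpi replicate 2. The B cell median was 0.04 without saline_fixed replicate 6. Neuronal markers summed to 2.96 to 31.5 FPKM in CCI libraries, against 7.20 to 7.54 FPKM in the naive libraries and 2.41 to 56.1 FPKM in saline libraries. Interferon-stimulated genes gave 0 calls among 30 and a median of 0.18, the same as over all genes. Ribosomal protein genes gave 0 calls among 40 and a median of -0.35, which was 0.02 against naive and -0.47 against saline. Glycolysis and hypoxia genes gave 0 among 19 and a median of 0.41, clock genes 0 among 15 and a median of 0.28 (0.12 without CCI_2dpi replicate 1), and lipid handling genes 0 among 16 and a median of -0.10 (0.19 without CCI_7dpi replicate 1). Of 26 oxidative phosphorylation genes and 15 of DNA damage and p53, 1 each was higher (5.44% of all genes were), Uqcrc1 and Fancd2.

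Taken by day, few genes passed the test. At 2 dpi against the controls, 1 gene was higher (0.00899%) and 2 were lower (0.018%), which made 0.027% of all genes, and 1933 had an unadjusted p under 0.05 (17.4%). The higher gene was Pigb, a mannosyltransferase of GPI anchor synthesis, listed at 8.73 and 5.61 FPKM in CCI_2dpi and 6.40 and 0 FPKM in CCI_7dpi, and at 0 in all 9 controls. It passed the filter on low values only through the CCI libraries, where it is high, so its call supports nothing. The lower ones were Usp16 and Sik2, and these 3 genes did not overlap the controls. Usp16, a histone deubiquitinase, was listed at 0 and 0 FPKM in CCI_2dpi and 9.35 and 8.12 FPKM in CCI_7dpi, against 4.31 and 8.89 FPKM in the naive libraries and 6.30 to 9.26 FPKM in saline libraries. Sik2, a salt-inducible kinase, had 0 and 0 FPKM in CCI_2dpi and 3.57 and 3.16 FPKM in CCI_7dpi libraries, against 2.69 and 3.95 FPKM in the naive ones and 1.59 to 5.07 FPKM (median 2.98) in the saline ones. It is listed at 0 in both 2 dpi libraries, like Usp16. An exact 0 in such a table can be a failed estimate, so no difference is given for Pigb, Usp16 or Sik2. By value 35 of 36 replication genes were higher at 2 dpi than in controls (63.5% of all genes were), and in 15 both 2 dpi libraries lay above all 9 controls (9.03% of all genes). Of 22 cholesterol synthesis genes 10 did so, against 1 of 35 mitosis genes. None of these lists had a called gene at 2 dpi. The number of calls at 2 dpi was 180 without naive replicate 2, 7 without naive replicate 1, 5 without either CCI_7dpi library, and 1 without any 1 of the 4 fixed saline libraries or saline_escalating replicate 8.

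At 7 dpi 0 genes were called by limma, the lowest adjusted p was 0.184, and 1699 had an unadjusted p under 0.05 (15.3%). The 6 positive differences with the lowest p at means of at least 5 FPKM were those of Htra3, Mmp2, Gusb, Pdcd1, Npnt and Nup210. Htra3 at 7 dpi differed from controls by 2.52 ± 0.45 (SE; adjusted p = 0.222), and Mmp2 by 1.65 ± 0.32 (SE; adjusted p = 0.235). On the negative side they were Sult1a1, Malat1, Gngt2, Fcgr3, S100a10 and Ccl6. Sult1a1 at 7 dpi differed by -1.85 ± 0.31 (SE; adjusted p = 0.184), and Malat1 by -1.94 ± 0.41 (SE; adjusted p = 0.235). Gngt2, a G protein γ subunit, was listed at 0 in all 4 CCI libraries and in naive replicate 2, at 95.6 FPKM in naive replicate 1 and at 75.1 to 183 FPKM in saline libraries. It passed the filter on low values only through control libraries, where it is high. A listed 0 can also be a failed estimate, so the low p of Gngt2 supports nothing. By value 35 of 36 replication genes and 35 of 35 mitosis genes were higher at 7 dpi than in controls (64.8% of all genes were). Both 7 dpi libraries lay above all 9 controls in 7 and 5 of them and in 0 of 22 cholesterol synthesis genes, against 8.74% of all genes. Over both directions 9.72% of all genes did not overlap the controls at 7 dpi. Without naive replicate 2 or CCI_7dpi replicate 1 there were 2 calls at 7 dpi, and without CCI_7dpi replicate 2 there were 4. Against saline alone 826 genes were higher and 242 lower at 7 dpi, and 926 were higher and 296 lower at 2 dpi.

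Between the days, the 2 CCI_7dpi libraries were set against the 2 CCI_2dpi libraries. The spread for this test came from all 13 libraries, so it holds the difference between naive and saline controls, which are not compared here. Few calls therefore cannot show that the days are alike. One gene was called (0.00899%), and 28 had an unadjusted p under 0.05 (0.252%). It was Usp16, for which both 2 dpi libraries are listed at 0, so no difference is given. Without CCI_2dpi replicate 1 or CCI_7dpi replicate 2 there were 2 calls, and without CCI_7dpi replicate 1 there were 5. Of 30 interferon-stimulated genes, 26 were higher at 7 dpi than at 2 dpi by value (50.9% of all genes were) and 0 were called. In 12 of them both 7 dpi libraries lay above both 2 dpi libraries, where 10.1% of all genes did so, and the median difference was 0.34, or 0.16 without CCI_2dpi replicate 2. Of 16 heat shock genes 14 were lower and 2 higher at 7 dpi by value, and 0 were called. In 5 of them both 7 dpi libraries lay below both 2 dpi libraries (6.71% of all genes), and the median was -0.35. It was -0.0039 without CCI_2dpi replicate 1 and -0.66 without CCI_2dpi replicate 2. For mitosis the median between days was 0.69 and for replication 0.03, with 0 genes of either list separating the days. Both signs turned with 1 library. The mitosis median ran from -0.90 without CCI_2dpi replicate 1 to 2.15 without CCI_2dpi replicate 2, and the replication median from -0.87 without CCI_7dpi replicate 1 to 0.85 without CCI_7dpi replicate 2.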

How the data were processed

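RNA of CD11b-selected lumbar cord cells was amplified by Smart-Seq2 and tagmented with Nextera XT, per the labels' protocols, a chemistry that keeps no strand, so overlapping genes cannot be told apart. Per the file header the deposited values are FPKM per gene symbol, made by the authors. Per the submitters' processing notes, the tools were featureCounts 1.4.6, HISAT2 2.0.5.1, DESeq2 and Cufflinks 2.2.1, with the build mm10. Which tool made the FPKM values is not given in the sources used here, and counts behind them were not used, so depth is unknown and no counting interval is given.

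Of 24888 rows, 826 that share 281 repeated symbols were left out. Genes at 1 FPKM or more in at least 2 of 13 libraries were tested (11125). FPKM was put on the log2(FPKM + 1) scale and fitted with limma 3.58.1 in R 4.3.3, with a mean for each of CCI_2dpi, CCI_7dpi and the controls, a trended prior and 10 residual degrees of freedom. The CCI value was the mean of both days. P-values were adjusted over all tested genes by Benjamini-Hochberg. Differences from naive and saline came from a fit with those controls as separate means in the same 13 libraries. A self-test on simulated data of this comparison, with 10924 genes, recovered 43 of 100 genes changed by 1 and 99 of 100 changed by 2 on the log2 scale, with 7 unchanged genes called. The simulation drew all libraries of a gene independently from a common mean and spread. It held no split between naive and saline controls, so it cannot show how the test behaves with the real ones.

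The members and gene lists were chosen with earlier results of these data known, so list counts and medians are given without a test. Named genes were, per comparison, the 12 largest differences in each direction among called genes with a group mean of at least 5 FPKM and no overlap (6 by lowest p where none was called), then from each list at most 4 members, again by p, and 14 microglial genes. Further genes of the lists are named because they were called, and some called members are not reported here. Positions are GENCODE vM21 (GRCm38). Promoters are RefSeq. Whether replicate numbers paired the samples is not known. Deviations of same-numbered CCI_2dpi and CCI_7dpi libraries correlated at -0.27. With 2 libraries a day the sign of that value turns with the numbering, so it cannot decide this.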

Additional observations from a re-analysis of the deposited data

Results flagged for a closer look

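In 12 cases a value stood farther from the rest of their group than the Dixon limit at 95% allows, among 238 tests of genes and list means; chance alone gives about 5% and 5.04% were found. In the 4 CCI libraries, S100a10 was low in CCI_7dpi replicate 2 at 1.85 FPKM, Pigb was listed at 0 there, and the mean log2(FPKM + 1) of the B cell list was 1.52 in CCI_2dpi replicate 2. Among the 9 controls, naive replicate 2 was high for the proliferation genes Foxm1 (4.40 FPKM) and Mki67 (8.24 FPKM), low for Ccl9 (22.7 FPKM) and listed at 0 for Gngt2. Saline_fixed replicate 5 was low for Gas6 at 31.2 FPKM. Saline_escalating replicate 9 was low for Tmem119 at 572 FPKM, high for Apoe at 3932 FPKM, and low in the mean log2(FPKM + 1) of the microglia list (9.15) and of the homeostatic list (8.50). That library also had the highest summed neutrophil markers, and their part in these values was not tested.

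Usp16 was called between CCI_7dpi and CCI_2dpi, with a fitted value of 3.28 on the log2(FPKM + 1) scale. Both CCI_2dpi libraries are listed at 0, so that value is set by the pseudocount (6.46 with 0.1) and is no measure of size, and a listed 0 can be a failed estimate.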

How the results depend on the processing

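For CCI against the controls, the 698 calls became 133 with a pseudocount of 0.1, 5 without the low-value filter, 188 after quantile normalization, 47 after median-ratio scaling, 1052 after rescaling to TPM, 2180 with array weights (0.329 to 1.82 per library), 127 with 23 libraries in the fit, 1319 with the kinds of control weighted equally and 1192 with 1 mean for all CCI libraries. A filter of 5 FPKM and a fit of all 30 libraries stayed within 1.5 times. Against naive alone there was 1 call, or 0 with the spread of 13 libraries, and against saline alone 2341, or 2581. Leaving out 1 library gave 0 to 1748. At 2 dpi the 3 calls became 1 with a filter of 5 FPKM, 13 with array weights, 1 with 23 and 0 with 30 libraries, 1 against naive (1 with the spread of 13 libraries), 1003 against saline (1222 with that spread) and 280 with equal weighting, and 1 to 180 with 1 library left out. At 7 dpi the 0 calls became 1 without the filter, 908 with array weights, 2 with 30 libraries, 1 against naive, 872 against saline (1068 with the spread of 13 libraries) and 234 with equal weighting, and 0 to 4 with 1 library left out. Between days the 1 call became 2 with a pseudocount of 0.1 or with array weights, 0 with 23 or 30 libraries, and 1 to 5 with 1 library left out. With a replicate block the calls were 0 in all 4 comparisons. The saline numbers are not shared with CCI, so against controls that fit rests on the naive libraries alone and changes the controls as well as adding the block. Between days crossed pairing gave 0 calls, and was added after seeing the data, as were both fits with the spread of 13 libraries. Whether the replicate numbers paired the samples is not known. The cause of these changes was not tested.

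The sign of the difference turned for 11 genes, of which Lars2 was called in CCI against controls and the others were not. Against naive alone, and with the block, the differences were 0.33 for Aif1 (0.017 after TPM rescaling), -0.23 for C4b, -0.13 for Lars2, -0.040 for P2rx4, 0.29 for Il1b, 0.35 for Tnf and -0.20 for Tlr4. Csf1r had -0.0044 after median-ratio scaling. Irf8 had -0.14 after median-ratio scaling, -0.0024 with array weights, -0.0013 against saline and, with 1 library left out, -0.031 (without CCI_2dpi replicate 1) to 0.20. Tmem119 had -0.18 after median-ratio scaling, -0.0042 with array weights, -0.06 without saline_escalating replicate 9 and, over all libraries left out in turn, -0.089 (without CCI_2dpi replicate 1) to 0.19. P2ry12 had 0.31 after quantile normalization, 0.18 after TPM rescaling, 0.0020 with array weights, 0.057 against saline, and 0.04, 0.0089, 0.07 and 0.28 without naive replicate 1, saline_escalating replicate 8, CCI_2dpi replicate 2 and CCI_7dpi replicate 1, the last being the top of a range that began at -0.31. Over 103 gene results, 1813 values under an alternative kept direction and side of the threshold, 1035 kept direction but no longer passed, 63 newly passed and 41 changed sign. With 2 libraries a day and no counts, the precision of each day's mean rests on the spread borrowed from the 13 libraries.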

Other observations

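Genes chosen after their values were seen, as those called against the 9 controls, with no overlap and a group mean of at least 5 FPKM, were ranked by their difference from the naive libraries alone. The first 15 are given here as a description, with no share or test for any group of them. The differences from naive (± SE) were 1.77 ± 0.61 for Lig1, 1.74 ± 0.49 for Mcm6, 1.66 ± 0.52 for Mcm2, 1.45 ± 0.51 for Chaf1a, a subunit of the chromatin assembly factor, 1.37 ± 0.43 for Timeless, a fork protection protein, 1.19 ± 0.41 for Mcm4 and 1.07 ± 0.48 for Topbp1, an activator of the checkpoint kinase ATR. E2f1, the E2F transcription factor, had 1.29 ± 0.62, and Rcc1, the exchange factor of Ran, had 1.25 ± 0.49. Cd72, a lectin-like inhibitory receptor, had 1.19 ± 0.61, and Klrg2 had 1.13 ± 0.48. Nup210 and Pdcd1 had 1.33 ± 0.45 and 1.05 ± 0.37. On the negative side stood Malat1 with -1.38 ± 0.41 and Sult1a1 with -1.24 ± 0.31. None of these differences from naive passed adjustment over all genes, where 0 were called by limma and 228 had an unadjusted p under 0.05.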
